A study of Mus musculus with 6 samples.

Results

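In mice fed the hexane extract of Boswellia serrata resin, liver RNA carried more message for 6 glutathione transferases, the sterol synthesis enzymes Hmgcs1 and Sqle, the beta tubulin Tubb2a and metallothionein 1. It carried less message for the complement components C6, C8b and C9, the growth hormone receptor and the steroid enzymes Hsd3b5 and Cyp7b1. The comparison takes 2 arrays of mice on the hexane extract (fraction 1) against 2 arrays of mice on the control diet, 4 of the 6 arrays in the study. The arrays were assigned by their titles, and every probe set that is not an Affymetrix control was used. Of these, 14755 probe sets were bright enough to test, and they stood for 9209 genes.

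Boswellia serrata is the tree that gives Indian frankincense. Fraction 1 was extracted with hexane and fraction 2 with methanol, and each made up 1% of the diet for 21 days. All 3 groups were Swiss-Webster mice, an outbred stock in which animals differ genetically, and the control mice ate the diet without extract. Whether a replicate was 1 animal or a pool is not in the labels, so the p-values here cover the spread between 2 RNA samples a diet and nothing wider.

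The liver clears foreign compounds in steps. Cytochromes P450 and reductases make a molecule more reactive, transferases couple it to glutathione, glucuronic acid or sulfate, and transporters move the product into bile or blood. Many of these genes are turned on by the nuclear receptors CAR and PXR or by the factor Nrf2. A separate set of liver genes, several of them steroid enzymes, follows growth hormone through its receptor and the factor STAT5, and hepatocytes also supply most of the complement and carrier proteins of plasma.

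The arrays were equally bright on average, with trimmed mean signals from 500.2 to 500.3 array units and medians from 139 to 167. Control replicate 2 stood apart in RNA quality, with a 3'/5' signal ratio of 3.87 for the actin control probe sets against 2.13 to 2.64 on the other 5 arrays. Control replicate 1 was scanned in the second of 2 scan batches, and control replicate 2 and both fraction 1 arrays in the first. By chip lot, control replicate 1 was of lot 2, control replicate 2 and fraction 1a of lot 1, and fraction 1b of lot 3, which held no control array. None of the 9 hepatocyte markers on the array was below the 40th percentile on every array, with summed signals of 138172 and 155025 on the control arrays and 136451 and 120908 with fraction 1. Markers of pancreatic acinar cells were also present, at summed signals of 24975 and 15513 on the control arrays and 11483 and 34164 with fraction 1, and so varied within each diet. Skeletal muscle markers summed to 2046 and 6281 on the controls, and to 3795 and 3934 with fraction 1. With 2 arrays a diet, precision is limited throughout.

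With fraction 1, 54 probe sets were called higher and 51 lower at an adjusted p under 0.05 (limma, two-sided, Benjamini-Hochberg), which is 0.712% of those tested, 0.366% higher and 0.346% lower. They stood for 42 genes that rose and 43 that fell, while 10 called probe sets carry no single gene symbol. Steroid enzyme Hsd3b5 and cytochrome Cyp2c55 marked the ends of the range, at log2 fold changes of -7.75 and 5.12. Signals of Hsd3b5 were 4685 and 5754 on control and 8.2 and 8.3 with fraction 1. The fraction 1 values lie below the 40th percentile of their arrays, so this fold change depends on the constant of 16 added before taking logarithms. Signals of Cyp2c55 were 217 and 269 on control and 9466 and 8471 with fraction 1. Among the called probe sets the median log2 fold change was 1.73 for those higher and -1.55 for those lower, and the smallest called were 0.78 for Aldh1a7 and -0.74 for Apof. Leaving out 1 array changed the count of called probe sets from 105 to 149 (control 1), 55 (control 2), 47 (fraction 1a), 14 (fraction 1b), 38 (fraction 2a) or 38 (fraction 2b). The count was 118 with scan batch as a block, 66 within scan batch 1 and 12 without a trend of variance on brightness.

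Control 1 being the sole control of its scan batch, single calls were also read with scan batch as a block. Of the 85 called genes, 60 were called in that fit and 25 were not, at adjusted p from 0.0514 to 0.0789 (limma). Among those described below, the calls lost were Ddit4, Urm1, Cysrt1, Cyp39a1, Btbd2, Dynll1, Blvrb and Aldh1a7 of the genes that rose. Of the genes that fell they were Lima1, Cotl1, Hsph1, Sucnr1, Alas2, Nox4, Ugt2b38, Nudt7, Elovl3, Hao1, Rtp4, Ctse, Slc17a3, Igfbp4 and Apof. Genes described below that passed with this block and not without it have both values beside them. With chip lot as a block instead, 55 of the 85 genes were called and 30 were not. Gstm1, Tubb4b and Nrp1 were among those lost with chip lot and kept with scan batch.

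**Figure D1:**
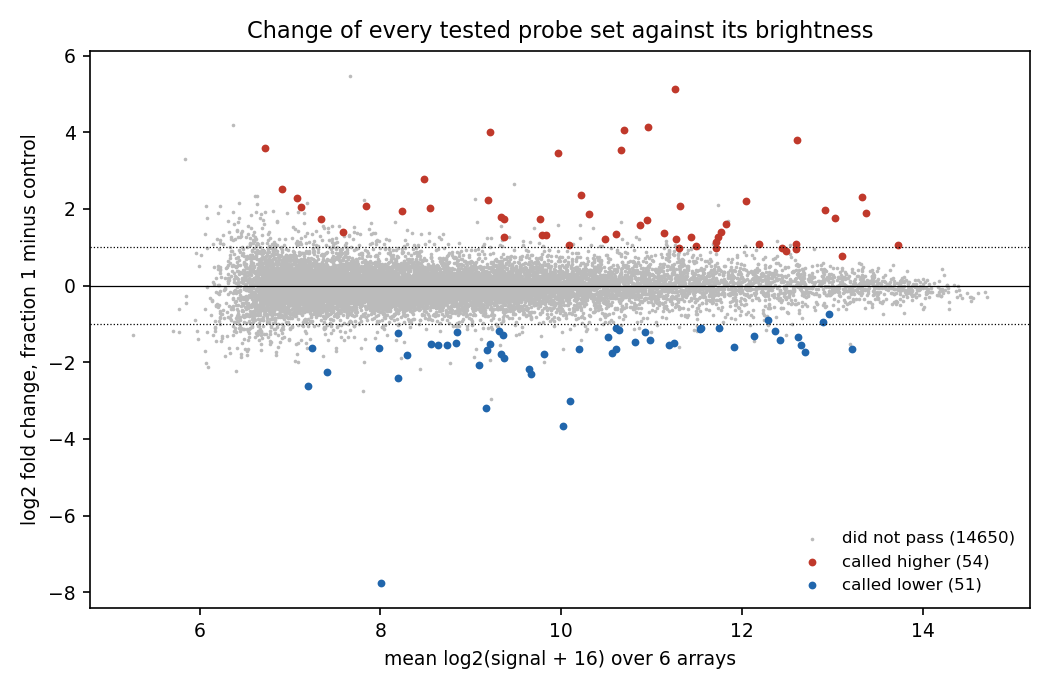
Log2 fold change of fraction 1 against control (vertical axis) for each of the 14755 tested probe sets, by its mean log2 of signal plus 16 over 6 arrays (horizontal axis). Red points are the 54 called higher, blue points the 51 called lower, grey points did not pass, and dotted lines mark 2-fold; most called points lie to the right of the dimmest probe sets, and the lowest blue point is Hsd3b5.

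The plot of change against brightness shows that calls were made mostly among bright probe sets. When the tested probe sets were divided in 3 equal parts by mean log2 value, the brightest part held 44 of those called higher and 37 of those called lower. The dimmest part held 6 and 3, although 130 of its probe sets were at least 2-fold higher and 133 at least 2-fold lower with no overlap between the groups. Standard errors of the log2 fold changes had a median of 0.36 in the dimmest part and 0.19 in the brightest. Over all brightness levels 505 probe sets, or 3.42%, were 2-fold apart without overlap, and 921, 941, 860 or 585 were when control 1, control 2, fraction 1a or fraction 1b was left out. Counted as genes with 1 probe set each, 31 (0.337%) were called higher and 37 (0.402%) lower, and 144 (1.56%) were at least 2-fold higher and 156 (1.69%) at least 2-fold lower without overlap. Without overlap at any size of change there were 1715 higher (18.6%) and 2143 lower (23.3%). Of the 2-fold genes, 117 higher and 120 lower did not pass the test.

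The 2 fraction 1 arrays did not carry the change equally. Among the 51 probe sets called lower, fraction 1b lay farther from the controls than fraction 1a in 44, and their median difference from the control mean was -1.67 on fraction 1b and -1.39 on fraction 1a. Among the 54 called higher it lay farther in 35, with medians of 1.68 and 1.64. The median absolute log2 difference between the 2 fraction 1 arrays was 0.37 for probe sets called lower, 0.19 for those called higher and 0.20 over all tested. Between the 2 controls it was 0.23 for those called lower, 0.29 for those called higher and 0.34 over all tested. The calls used the same 4 arrays, so these values describe the called probe sets and were given no test. Fraction 1a and fraction 1b were of different chip lots, and the part of lot in their difference was not tested.

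**Figure D2:**
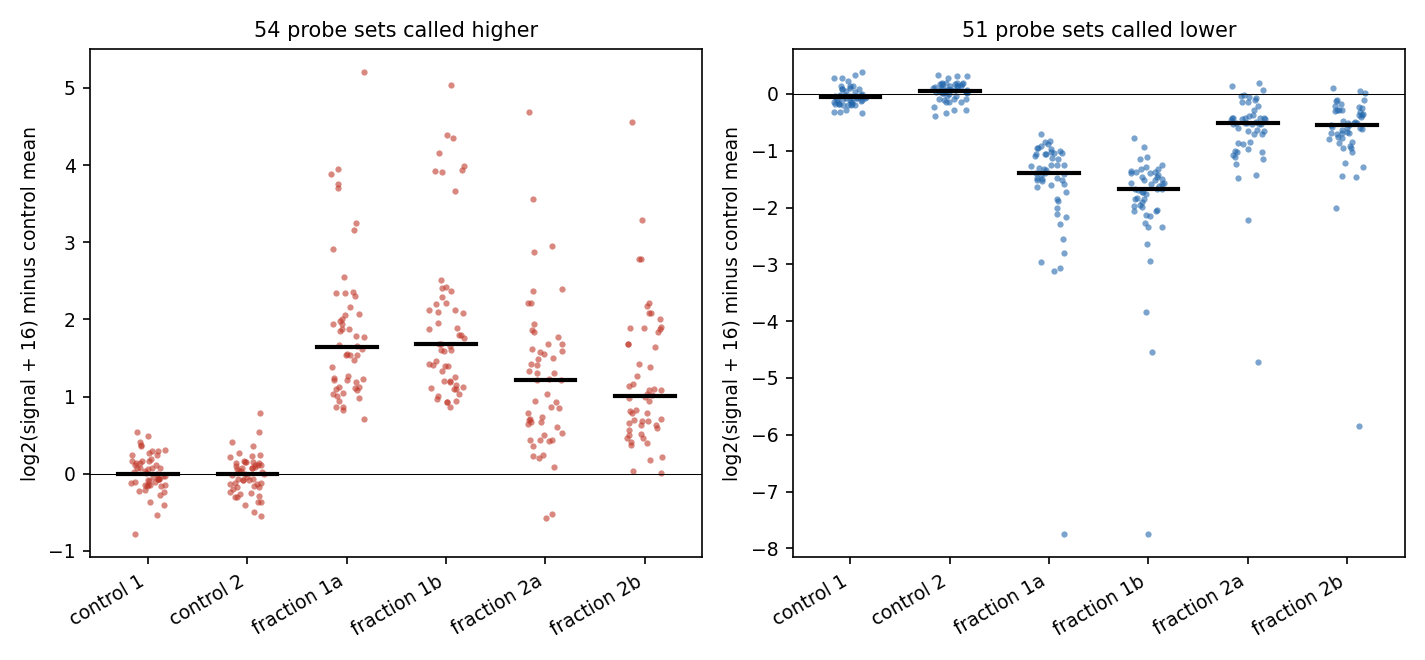
Difference of each called probe set from the mean of the 2 controls, in log2 of signal plus 16 (vertical axis), on each of the 6 arrays (horizontal axis), for the 54 called higher and the 51 called lower. Bars are medians; the probe sets called lower sit at -1.39 on fraction 1a and -1.67 on fraction 1b, against -0.52 and -0.55 on the fraction 2 arrays.

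Of 18 glutathione S-transferase genes tested, which couple molecules to glutathione, 6 rose on at least 1 probe set, 0 fell and 12 did not pass. Counted in the same way, 42 of all 9209 genes tested rose. The family was counted after its values were seen. Those that rose were Gstm1, Gstm2, Gstm3 and Gstm4 of the mu class, Gstt3 of the theta class and Gsta2 of the alpha class. Signals of Gstm2 were 2172 and 1288 on control and 8309 and 7338 with fraction 1 (log2 fold change 2.21 ± 0.23 SE, adjusted p = 0.00857). Both fraction 1 arrays exceeded both controls, and control 2 was the lower control. Signals of Gstm3 were 5042 and 4182 on control and 18174 and 16059.9 with fraction 1 (log2 fold change 1.89 ± 0.14 SE, adjusted p = 0.000952). The controls were close together and did not overlap with fraction 1. A second probe set of Gstm3 read 1487 and 896 on the controls and 15250 and 17494 with fraction 1, a log2 fold change of 3.80. Signals of Gstm4 were 1049.8 and 828 on control and 2623 and 3020.0 with fraction 1 (log2 fold change 1.58 ± 0.19 SE, adjusted p = 0.0158), and those of Gstt3 were 2322 and 1518 on control and 5811 and 5761 with fraction 1 (log2 fold change 1.62 ± 0.20 SE, adjusted p = 0.0188). In both genes the 2 fraction 1 arrays agreed more closely than the 2 controls did. Gsta2 changed by less, with signals of 4035 and 4457 on control and 8383 and 8169.7 with fraction 1 (log2 fold change 0.96 ± 0.14 SE, adjusted p = 0.0319). Gstm1 was called on 1 of its 4 tested probe sets, at 1.13, and its brightest changed by 0.27. Genes of the mu class are near copies of each other, and the array probes may read more than 1 of them, so the values of single members are uncertain.

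Ugdh and Txn2, of glucuronic acid and thiol metabolism, also rose. Ugdh, which makes the UDP-glucuronic acid that glucuronosyltransferases use, had signals of 2332 and 1551 on control and 4991 and 5106 with fraction 1 (log2 fold change 1.40 ± 0.21 SE, adjusted p = 0.0334). Txn2, the mitochondrial thioredoxin, read 866 and 429.6 on control and 2240.3 and 2290.3 with fraction 1 (log2 fold change 1.86 ± 0.29 SE, adjusted p = 0.0366), and its controls lay 2.01-fold apart. Its brightest probe set changed by only 0.51 and was not called. Gsr, which restores oxidised glutathione, did not pass, with signals of 489.7 and 501 on control and 954 and 1167 with fraction 1 (log2 fold change 1.07 ± 0.19 SE, adjusted p = 0.0538). The other probe set of Gsr changed by 0.04. Carbonyl reductases Cbr1 and Cbr3 did not pass either, at log2 fold changes of 1.01 ± 0.19 (SE, adjusted p = 0.0661) and 2.15 ± 0.42 (SE, adjusted p = 0.0699), with no overlap between the groups. With scan batch as a block Cbr3 passed, at 2.50 (adjusted p = 0.04).

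The genes that rose also include 3 oxidising or hydrolysing enzymes and a transporter. Slco1a4 encodes an uptake transporter for organic anions and bile acids, and its signals were 1168 and 989 on control and 4519 and 4586 with fraction 1 (log2 fold change 2.07 ± 0.16 SE, adjusted p = 0.00123). The call held under each of the 18 alternatives that were run per gene. Cyp2g1, a cytochrome best known from olfactory tissue, read 244 and 254 on control and 957 and 836 with fraction 1 (log2 fold change 1.78 ± 0.20 SE, adjusted p = 0.0104), with both pairs of replicates close together. Ces2a, a carboxylesterase that cleaves esters and amides, was already abundant in control liver and read 8270.2 and 9321 on control and 19173 and 17676 with fraction 1 (log2 fold change 1.07 ± 0.12 SE, adjusted p = 0.0111). Aldh1a7, an aldehyde dehydrogenase, had the smallest called increase, from 6327 and 6921 to 10806 and 12011 (log2 fold change 0.78 ± 0.12 SE, adjusted p = 0.039). The export pump gene Abcc2 had signals of 399.9 and 345 on control and 868 and 937 with fraction 1 and did not pass (log2 fold change 1.24 ± 0.24 SE, adjusted p = 0.0699), but passed with scan batch as a block at 1.45 (adjusted p = 0.0305).

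Of the oxysterol hydroxylases Cyp39a1 and Cyp7b1, which lead side chain oxidised cholesterol towards bile acids, the first rose and the second fell. Cyp39a1 read 228 and 157 on control and 635 and 925 with fraction 1 (log2 fold change 1.93 ± 0.29 SE, adjusted p = 0.034), so both fraction 1 arrays were well above the controls and fraction 1b was the highest. It did not pass once scan batch was blocked (adjusted p = 0.0562). Cyp7b1 read 3689 and 3955 on control and 1596 and 1055 with fraction 1 (log2 fold change -1.55 ± 0.21 SE, adjusted p = 0.0273), and here fraction 1b was the lowest. The second probe set of Cyp7b1 was also called, with a log2 fold change of -1.76.

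Sterol synthesis and its control were represented by 3 of the 42 genes that rose, out of all 9209 tested. They are described as single genes, because the tested members of the pathway were not counted. Insig2 holds the sterol sensing complex of SCAP and SREBP in the endoplasmic reticulum, Hmgcs1 makes the hydroxymethylglutaryl-CoA from which sterols are built, and Sqle oxidises squalene. Signals of Insig2 were 1093 and 906 on control and 2916 and 3733 with fraction 1 (log2 fold change 1.71 ± 0.22 SE, adjusted p = 0.0188), and a second of its 3 probe sets was called at 1.73. The brightest probe set of Insig2 changed by 1.17 and did not pass. Sqle read 691 and 550.3 on control and 1450.3 and 1668 with fraction 1 (log2 fold change 1.31 ± 0.20 SE, adjusted p = 0.035), and Hmgcs1 read 4529.7 and 4071 on control and 8274 and 9911 with fraction 1 (log2 fold change 1.07 ± 0.14 SE, adjusted p = 0.0242). On each of these the fraction 1 arrays lay above both controls, with fraction 1b the higher. Idi1 and Cyp51, further enzymes of the pathway, did not pass at 1.50 (adjusted p = 0.0687) and 1.27 (adjusted p = 0.115), and control 2 was the lowest array for both. With scan batch as a block Idi1 passed, at 1.69 (adjusted p = 0.0478).

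Promoter sequence was read from RefSeq promoters of build GRCm38.p6, which cover 250 bases before to 50 after each annotated start and matched 33 of the 42 genes that rose, 33 of the 43 that fell and 7480 of the 9209 tested. The CCAAT box (letters CCAAT, either strand), which the factor NF-Y binds, was present for 23 of the 33 genes that rose (69.7%), 13 of the 33 that fell (39.4%) and 42.3% of the tested genes. Over all 32851 promoters of the table, taken start by start, 37.4% held it. A gene with several starts was counted if any start held the letters. The stretches below show 1 match each for 4 detoxification genes that rose and for Insig2, chosen after the matches were seen, with the match in capitals and 20 bases on either side, 5′ to 3′ on the strand of the gene. ATTGG is the same box read on the opposite strand, and the stretch of Gstm2 holds a second copy in lower case letters.
Gstm2, chr3:107986481-107986525, minus strand: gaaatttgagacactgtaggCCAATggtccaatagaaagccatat
Gstm4, chr3:108044897-108044941, minus strand: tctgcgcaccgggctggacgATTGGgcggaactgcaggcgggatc
Gsta2, chr9:78347171-78347215, minus strand: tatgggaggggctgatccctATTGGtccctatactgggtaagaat
Cyp2c55, chr19:39006923-39006967, plus strand: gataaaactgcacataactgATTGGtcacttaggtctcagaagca
Insig2, chr1:121332701-121332745, minus strand: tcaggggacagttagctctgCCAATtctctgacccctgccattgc

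Other motifs were searched in the same windows on both strands. TATAAA was found for 24.2% of the genes that rose, 18.2% of those that fell and 10.4% of all tested, and 13.6% of all promoters. GCGTG, the core bound by the AhR, was found for 63.6%, 36.4% and 54.2%, and in 32.4% of all promoters. TGACNNNGC, the core of the antioxidant response element bound by Nrf2, was found for 6.06%, 15.2% and 16.8%, and in 12.4% of all promoters, and Ugdh and Btbd2 were the 2 genes that rose and held it. A match is a description of letters in this window and no site was tested.

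Of 33 metal handling genes tested 1 rose, of 21 genes of heme synthesis and P450 partners 1 rose, and none fell in either list. Alas2, the heme synthesis enzyme of red cell precursors, was counted outside these lists as a red cell marker, and it fell (log2 fold change -1.66). Over all genes 0.337% were called higher and 0.402% lower. In these lists 5 and 4 genes had an unadjusted limma p under 0.05, against 12.9% of all genes. Mt1, a metallothionein that binds zinc and copper, had signals of 5210.2 and 2940.0 on control and 19885 and 11764 with fraction 1 (log2 fold change 1.96 ± 0.30 SE, adjusted p = 0.034), and both pairs of replicates were spread widely, fraction 1a being the highest array. Mt2 followed the same order of arrays, with signals of 2647 and 949 on control and 8611 and 5523 with fraction 1, and did not pass (log2 fold change 2.11 ± 0.42 SE, adjusted p = 0.075). Blvrb, a flavin and biliverdin reductase, read 1621 and 1888 on control and 3211 and 3783 with fraction 1 (log2 fold change 0.99 ± 0.17 SE, adjusted p = 0.0498), and Slc48a1, a transporter that moves heme across membranes, read 894 and 943 on control and 2228 and 2052 with fraction 1 (log2 fold change 1.20 ± 0.17 SE, adjusted p = 0.0266). Alas1, the first enzyme of heme synthesis in liver, was higher on both fraction 1 arrays but did not pass, at 1.16 ± 0.28 (SE, adjusted p = 0.128), with its controls at 5236 and 3231. With scan batch as a block it passed, at 1.50 (adjusted p = 0.0111), and Blvrb did not (0.0593).

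Of 48 actin and tubulin cytoskeleton genes tested, each read on its brightest probe set, 2 rose and none fell, so most of the list did not pass. Lima1 and Cotl1, which bind actin, fell on called probe sets that were not their brightest, at -2.63 and -1.81, and are described below. Over all genes 0.337% were called higher and 0.402% lower. In the list 9 genes had an unadjusted limma p under 0.05, against 12.9% of all genes. Tubb2a, a beta tubulin scarce in control liver, rose to 895 and 1149 from 191 and 213 (log2 fold change 2.24 ± 0.21 SE, adjusted p = 0.00348). Tubb4b, a widely expressed beta tubulin, read 1606 and 1059.7 on control and 3829 and 3022 with fraction 1 (log2 fold change 1.37 ± 0.23 SE, adjusted p = 0.0433). Its 4 other tested probe sets changed by 0.14 to 0.47 and were not called. Dynll1, a light chain of dynein, read 1046 and 936 on control and 2140.2 and 3045 with fraction 1 (log2 fold change 1.35 ± 0.21 SE, adjusted p = 0.0384), while its brightest probe set at 0.72 was not called. S100a10, the partner of annexin A2 at membranes, read 1885 and 1891 on control and 4090.2 and 3710.4 with fraction 1 (log2 fold change 1.04 ± 0.15 SE, adjusted p = 0.0308), and its controls were nearly equal. Gadd45b, a stress and growth arrest gene, read 101 and 101 on control and 432 and 527 with fraction 1 (log2 fold change 2.08 ± 0.24 SE, adjusted p = 0.0132), with equal controls and no overlap. A second probe set of Gadd45b was called at 3.59, from signals of 12.7 and 19.1 to 287 and 467. Both of its control values lay below the 40th percentile, so the size of this change depends on the constant added before logarithms, and the call held in 8 of 18 alternatives. The remaining probe set of Gadd45b had a log2 fold change of -0.14 (adjusted p = 0.901).

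Genes of other functions rose as well. Bola2, which helps deliver iron-sulfur clusters, read 340.3 and 306 on control and 1153 and 1055 with fraction 1 (log2 fold change 1.72 ± 0.19 SE, adjusted p = 0.00914), and 1 of its 5 tested probe sets was called. Aprt, which salvages adenine, read 1641 and 2065 on control and 4038 and 4866 with fraction 1 (log2 fold change 1.26 ± 0.19 SE, adjusted p = 0.0319). The brightest probe set of Aprt changed by 0.38 and was not called. Crcp, a subunit of RNA polymerase III, read 834 and 761 on control and 1643 and 1715 with fraction 1 (log2 fold change 1.06 ± 0.17 SE, adjusted p = 0.0405), and its 2 groups did not overlap. Abhd4 and Lpgat1, enzymes of phospholipid turnover, rose at 0.97 ± 0.15 (SE) and 1.32 ± 0.18 (SE). Signals of Pigt, a subunit of the complex that attaches lipid anchors to proteins, were 70.4 and 57.7 on control and 216 and 292 with fraction 1 (log2 fold change 1.74 ± 0.30 SE, adjusted p = 0.04998). Btbd2, a BTB domain protein, read 68.5 and 66.3 on control and 228 and 183 with fraction 1 (log2 fold change 1.40 ± 0.24 SE, adjusted p = 0.0498), and Cysrt1 read 207 and 89.0 on control and 572 and 651 with fraction 1 (log2 fold change 2.03 ± 0.35 SE, adjusted p = 0.0498). For Pigt, Btbd2, Txn1, Urm1 and Fibp both controls lay below the 40th percentile of their arrays, so the size of these changes depends on the constant added before logarithms.

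**Figure D3:**
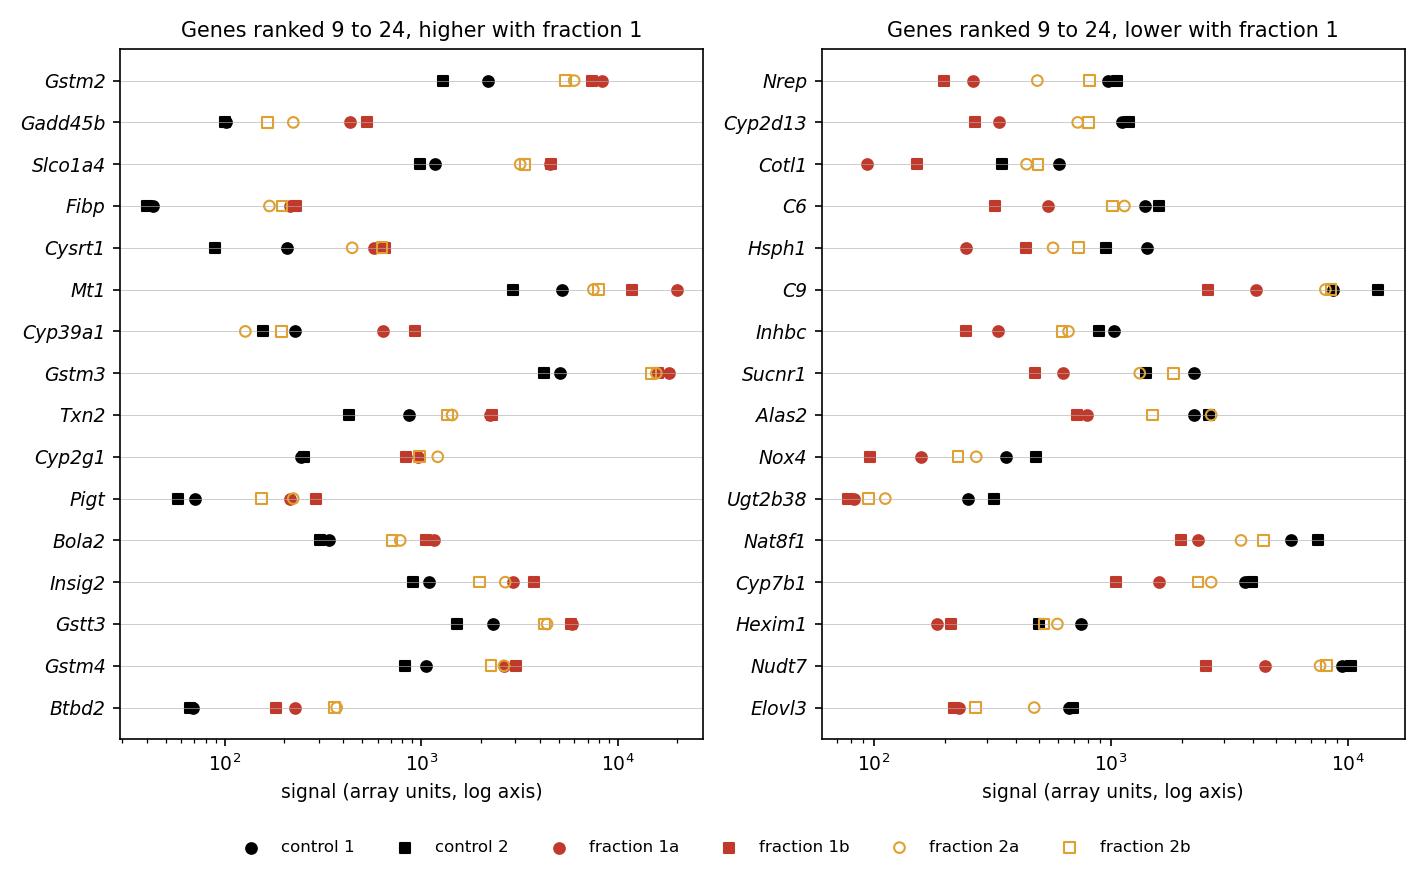
Signal in array units (horizontal log axis) of the genes ranked 9 to 24 by fold change among those that rose (left) and those that fell (right), with 1 symbol for each of the 6 arrays. The black control symbols and the filled red fraction 1 symbols do not overlap for any gene shown; the open fraction 2 symbols mostly lie between them.

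Igfbp1 and Ddit4, which rise in fasting and under glucocorticoids, are among the largest increases and show how much 1 array can weigh. Ddit4 read 142 and 179 on control and 627 and 2204 with fraction 1, so fraction 1b was 3.51-fold above fraction 1a, and its log2 fold change ran from 1.87 to 3.66 when 1 array was left out. For Igfbp1 the same range was 2.92 to 3.98. The call for Ddit4 held in 3 of 18 alternatives and that for Igfbp1 in 12. Sulfotransferase Sult2a2 read 28.3 and 46.7 on control and 648 and 8135 with fraction 1, with fraction 1 replicates far apart, and did not pass (log2 fold change 5.46 ± 1.14 SE, adjusted p = 0.0884).

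Among the genes that fell are components of the complement membrane attack complex. Of 6 tested, counted after their values were seen, C6, C8b and C9 fell, and C8a, C8g and Hc did not pass. Over all genes, 0.402% were called lower. Signals of C6 were 1393 and 1603 on control and 544 and 324 with fraction 1 (log2 fold change -1.79 ± 0.25 SE, adjusted p = 0.0284). Signals of C9 were 8677 and 13463 on control and 4095 and 2569.8 with fraction 1 (log2 fold change -1.73 ± 0.26 SE, adjusted p = 0.0319), with the 2 controls 1.55-fold apart and fraction 1b the lowest array. C8b read 3826 and 4708 on control and 1585 and 1377 with fraction 1 (log2 fold change -1.51 ± 0.19 SE, adjusted p = 0.0188), and C8a read 6027 and 10008 on control and 4422 and 3386 with fraction 1 (log2 fold change -1.0 ± 0.24 SE, adjusted p = 0.12). All 4 genes with values given had both fraction 1 arrays below both controls.

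Inhbc, Rarres2, Apof and Igfbp4 encode secreted proteins and fell. Inhbc, the subunit of activin C, read 1032 and 897 on control and 335 and 246 with fraction 1 (log2 fold change -1.69 ± 0.21 SE, adjusted p = 0.0188). Rarres2, the adipokine chemerin, and Apof, a lipoprotein bound inhibitor of cholesteryl ester transfer, fell by small amounts from high levels. Apof read 11116 and 10454 on control and 6576 and 6311 with fraction 1 (log2 fold change -0.74 ± 0.12 SE, adjusted p = 0.0454), and Rarres2 read 6902 and 7265 on control and 3942 and 3679.9 with fraction 1 (log2 fold change -0.89 ± 0.14 SE, adjusted p = 0.035). Igfbp4, a binding protein for insulin-like growth factors, read 10558 and 11120.3 on control and 6121 and 5040.1 with fraction 1 (log2 fold change -0.96 ± 0.15 SE, adjusted p = 0.0366). In these 3 genes the replicates of each diet lay close together and the groups did not overlap. For Igfbp4 and Rarres2 the brightest probe set fell short of the threshold, at -0.42 and -0.70.

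Ghr, Sucnr1, Nrp1 and Il15ra encode cell surface receptors and fell. Ghr, the growth hormone receptor, read 8096 and 7199.6 on control and 3751 and 2957 with fraction 1 (log2 fold change -1.19 ± 0.16 SE, adjusted p = 0.0238), and 1 of its 3 tested probe sets was called. Sucnr1, the receptor for succinate, read 2249 and 1405 on control and 627 and 481 with fraction 1 (log2 fold change -1.67 ± 0.27 SE, adjusted p = 0.0433), and its controls were 1.6-fold apart. Nrp1, a co-receptor for semaphorins and vascular growth factors, read 910.4 and 935 on control and 443 and 361 with fraction 1 (log2 fold change -1.17 ± 0.20 SE, adjusted p = 0.04998), and Il15ra, which presents interleukin 15, read 608 and 686 on control and 306 and 240.5 with fraction 1 (log2 fold change -1.20 ± 0.21 SE, adjusted p = 0.04998). Other tested probe sets of Nrp1 changed by -0.28 and -0.43 and that of Il15ra by -0.26, and none of these was called. Egfr and Il6st did not pass, at -0.96 (adjusted p = 0.0879) and -0.88 (adjusted p = 0.0793).

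Of 53 steroid and retinoid enzymes tested, 2 fell (Hsd3b5 and Hsd3b2) and none rose, against 0.402% of all genes called lower. Other enzymes and transporters of drugs and conjugates that fell are described here as single genes. Cyp2d13 read 1115 and 1190.5 on control and 338 and 268 with fraction 1 (log2 fold change -1.88 ± 0.20 SE, adjusted p = 0.00857), and its second probe set was called too, at -1.29. The N-acetyltransferase gene Nat8, whose product completes mercapturic acids, and its relative Nat8f1 both fell. Nat8f1 read 5775 and 7512 on control and 2335 and 1985 with fraction 1 (log2 fold change -1.61 ± 0.19 SE, adjusted p = 0.0145). Ugt2b38, a glucuronosyltransferase, read 251 and 322 on control and 82.8 and 78.1 with fraction 1 (log2 fold change -1.64 ± 0.28 SE, adjusted p = 0.04998), with both fraction 1 values below the 40th percentile. Slc17a3, a transporter of organic anions such as urate, read 2543 and 2101 on control and 1139 and 913 with fraction 1 (log2 fold change -1.17 ± 0.19 SE, adjusted p = 0.0406). Keg1, of the glycine N-acyltransferase-like family, read 7690.2 and 8064 on control and 3288 and 2635 with fraction 1 (log2 fold change -1.41 ± 0.15 SE, adjusted p = 0.00914), and its call held in 15 of 18 alternatives. Retsat, which saturates retinol, and Slc22a7, an organic anion transporter, did not pass, at -1.17 (adjusted p = 0.0628) and -1.94 (adjusted p = 0.0512). With scan batch as a block Slc22a7 passed, at -2.36 (adjusted p = 0.00276).

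Of 32 listed peroxisome genes tested Hao1 fell, and of 39 genes of fatty acid and triglyceride synthesis Elovl3 fell, where 0.402% of all genes were called lower. The peroxisome list had a median of -0.21. Both fraction 1 arrays were below both controls for 16 of its genes and above them for 5, where 23.3% of all genes were lower and 18.6% higher. Nudt7, a gene outside these lists that cleaves coenzyme A in peroxisomes, read 9458 and 10365 on control and 4493 and 2526 with fraction 1 (log2 fold change -1.55 ± 0.24 SE, adjusted p = 0.035), and fraction 1b was 1.78-fold below fraction 1a. Elovl3, which elongates long fatty acids, read 670.0 and 693 on control and 228 and 219 with fraction 1 (log2 fold change -1.54 ± 0.27 SE, adjusted p = 0.04998), with tight replicates on both diets. Hao1, the peroxisomal glycolate oxidase, read 3068 and 2521 on control and 1156 and 862 with fraction 1 (log2 fold change -1.46 ± 0.25 SE, adjusted p = 0.0498), and Cyp4v3, a fatty acid hydroxylase, read 4292 and 5528 on control and 2569 and 1979 with fraction 1 (log2 fold change -1.11 ± 0.19 SE, adjusted p = 0.04998). Nox4, an NADPH oxidase that makes hydrogen peroxide, read 363 and 484 on control and 158 and 96.7 with fraction 1 (log2 fold change -1.64 ± 0.28 SE, adjusted p = 0.0493).

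The sequence TTCNNNGAA, the general form of a site that STAT5 binds, was searched on the same promoters. It was found for 5 of the 33 genes that fell and had a promoter (15.2%), 1 of the 33 that rose (3.03%), 8.29% of the tested genes and 8.3% of all promoters. The stretches of 4 of these 5 genes are shown to place the letters, with the match in capitals and 20 bases on either side, 5′ to 3′ on the strand of the gene. They were chosen after the matches were seen, and no binding was measured.
Keg1, chr19:12695597-12695645, plus strand: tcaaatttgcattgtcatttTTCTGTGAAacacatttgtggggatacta
Slc17a3, chr13:23839276-23839324, plus strand: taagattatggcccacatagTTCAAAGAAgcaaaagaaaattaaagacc
Oas1a, chr5:120907595-120907643, minus strand: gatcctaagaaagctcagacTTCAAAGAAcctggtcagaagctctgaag
Nox4, chr7:87246407-87246455, plus strand: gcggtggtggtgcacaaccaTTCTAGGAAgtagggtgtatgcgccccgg

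Immune genes that fell include H2-K1, a classical MHC class I chain, and the interferon responsive genes Oas1a and Rtp4. Rtp4 read 514 and 454 on control and 218 and 173 with fraction 1 (log2 fold change -1.25 ± 0.22 SE, adjusted p = 0.04998). H2-K1 read 5734 and 6768 on control and 2986 and 2061 with fraction 1 (log2 fold change -1.32 ± 0.19 SE, adjusted p = 0.0319), but its brightest probe set changed by -0.36 and another by 0.06, and MHC class I genes are near copies of each other. Ctse, the protease cathepsin E, read 2436 and 2540.4 on control and 1276 and 894 with fraction 1 (log2 fold change -1.21 ± 0.20 SE, adjusted p = 0.0466), and a second probe set of it had the opposite sign at 0.20 without passing.

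Genes of transcription, protein folding and the actin network completed the genes that fell. Hexim1, which restrains the elongation factor P-TEFb, read 748 and 498 on control and 184 and 213 with fraction 1 (log2 fold change -1.55 ± 0.24 SE, adjusted p = 0.035). Hsph1, a large heat shock protein, read 1418 and 957 on control and 246 and 440.1 with fraction 1 (log2 fold change -1.77 ± 0.31 SE, adjusted p = 0.04998), and control 1 was the highest array. Tsc22d1, a transcription factor induced by transforming growth factor beta, fell on 2 of its 4 probe sets, at -1.35 and -1.54. Nrep read 970.1 and 1060.4 on control and 264 and 198 with fraction 1 (log2 fold change -2.08 ± 0.27 SE, adjusted p = 0.0208), and its second probe set was called at -1.51. Cotl1, which binds actin filaments, read 603 and 349 on control and 93.5 and 152 with fraction 1 (log2 fold change -1.81 ± 0.31 SE, adjusted p = 0.0498), but only 1 of its 5 probe sets was called and the brightest changed by -0.29.

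Alas2, the heme synthesis enzyme of red cell precursors, is a marker of another cell type. It read 2244 and 2609.9 on control and 793 and 723 with fraction 1 (log2 fold change -1.66 ± 0.26 SE, adjusted p = 0.0384), with close replicates on both diets. Of the 5 red cell markers on the array, Hba-a1, Epb42 and Slc4a1 were below the 40th percentile on each of the 6 arrays, and the summed signal of the list was 2582 and 2980 on the controls and 1130 and 1110 with fraction 1, most of it from Alas2 itself. Klf1, the other marker of the list that could be tested, was not called (0.21, adjusted p = 0.825). Whether fewer red cell precursors or less RNA per cell lies behind this value cannot be told apart in whole liver RNA, and this holds for every gene described here.

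Gene lists by function moved little as wholes. Of the 85 called genes, 66 belong to none of the 42 function lists used, and 14 of the lists have a member past the threshold. No list was made for cytochromes P450, glutathione transferases, sterol synthesis, complement or organic anion transporters, to which several called genes belong. The list values therefore do not cover those functions. List medians ran from -0.44 to 0.20, against a median of -0.03 over all genes tested, of which 46.3% were above 0. The highest median belonged to 28 genes that respond to fasting and glucocorticoids, where 2 rose and none fell (0.337% and 0.402% of all genes). In it 6 were at least 2-fold higher and 1 at least 2-fold lower without overlap (1.56% and 1.69% of all genes). At any size 12 were higher and 4 lower without overlap (18.6% and 23.3% of all genes). Beyond Igfbp1 and Ddit4, Cebpd read 167 and 183 on control and 446 and 773 with fraction 1 (log2 fold change 1.66 ± 0.30 SE, adjusted p = 0.0542) and Zbtb16 read 180.0 and 135 on control and 354 and 605 with fraction 1 (log2 fold change 1.48 ± 0.34 SE, adjusted p = 0.108), and neither passed. Cebpb, the partner of Cebpd among the C/EBP factors, did not pass at 1.26 (adjusted p = 0.0659), but passed with scan batch as a block at 1.41 (adjusted p = 0.0463). The other probe sets of Cebpd, Zbtb16 and Cebpb changed by 0.70, 0.06 and 0.28.

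The lowest median, -0.44, belonged to 20 circadian clock genes, of which 6 were above 0 and 0 passed. With limma the smallest unadjusted p values in the list belonged to Tef, Bhlhe40 and Dbp, and 5 of the 20 genes had an unadjusted p under 0.05, against 12.9% of all genes. Tef read 4107 and 3501 on control and 2493 and 2294 with fraction 1 (log2 fold change -0.66 ± 0.17 SE, adjusted p = 0.15), and Dbp read 4096 and 4770.5 on control and 2871 and 3229 with fraction 1 (log2 fold change -0.54 ± 0.18 SE, adjusted p = 0.256). Both fraction 1 arrays were below both controls for 8 of the 20 genes and above them for 1, where 23.3% of all genes were lower and 18.6% higher. The list median was -0.24 without control 1 and -0.18 without fraction 1b. The time of day at which livers were taken is not given in the labels.

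The list of cytosolic heat shock proteins held 27 tested genes, with mitochondrial chaperones such as Hspd1 and Hspe1 among them. Its median was -0.19, Hsph1 fell, and 13 genes had both fraction 1 arrays below both controls against 1 above (23.3% and 18.6% of all genes). Hspa1a read 448 and 140.0 on control and 45.8 and 58.9 with fraction 1 (log2 fold change -1.98 ± 0.51 SE, adjusted p = 0.149), Hspa1b read 2484 and 1018 on control and 332 and 726 with fraction 1 (log2 fold change -1.66 ± 0.46 SE, adjusted p = 0.173), and Dnajb1 read 1058 and 621 on control and 312 and 434 with fraction 1 (log2 fold change -1.11 ± 0.28 SE, adjusted p = 0.142). None of the 3 passed, and control 1 was the highest array for each. The list median was -0.14 without control 1, -0.12 with scan batch or chip lot as a block, -0.43 without control 2 and -0.30 without fraction 1a. The chaperones of the endoplasmic reticulum lay close to all genes, with a median of -0.07 over 29 genes. None passed the threshold, and 5 had an unadjusted limma p under 0.05, against 12.9% of all genes. Hspa5, the main one, read 5359 and 7323 on control and 4044 and 4352 with fraction 1 (log2 fold change -0.58 ± 0.18 SE, adjusted p = 0.221).

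Protein synthesis lists lay slightly above all genes. Of 44 cytosolic ribosomal protein genes, 29 were above 0, 19 had both fraction 1 arrays above both controls against 2 below (18.6% and 23.3% of all genes), and the median was 0.08, or 0.01 without control 1 and 0.15 without control 2. Rpl37, Rpl14 and Rpsa had the smallest p of the list, and none passed, at 0.66 (adjusted p = 0.199), 0.86 (adjusted p = 0.212) and 0.38 (adjusted p = 0.218). Of 53 ribosome biogenesis genes 37 were above 0, with a median of 0.12. Oxidative phosphorylation, with 70 genes, had a median of -0.01 and 12 genes above both controls against 11 below, both smaller shares than over all genes.

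Extracellular matrix genes were lower on both fraction 1 arrays more often than higher, 17 against 2 of 35, where 23.3% of all genes were lower and 18.6% higher. The median was -0.23, none passed the threshold, and 9 had an unadjusted limma p under 0.05, against 12.9% of all genes. Stellate cells make much of this matrix. Of their 9 tested markers 2 were above 0, with a median of -0.41, and the summed signal over 11 measured markers was 9786 and 8885 on the controls and 6780 and 5732 with fraction 1. Lrat and Hand2, which define these cells, were below the 40th percentile on each of the 6 arrays. Reln read 2531 and 2963 on control and 1468 and 1092 with fraction 1 (log2 fold change -1.10 ± 0.20 SE, adjusted p = 0.0523), and Col3a1 read 475 and 598 on control and 419.8 and 269 with fraction 1 (log2 fold change -0.64 ± 0.25 SE, adjusted p = 0.341). The part of stellate cell number in the matrix values was not tested. Sinusoidal endothelial markers summed to 9715 and 12213 on the controls and 8371 and 7942 with fraction 1, and Kupffer cell markers to 11079 and 12177 against 9803 and 10312.

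**Figure D4:**
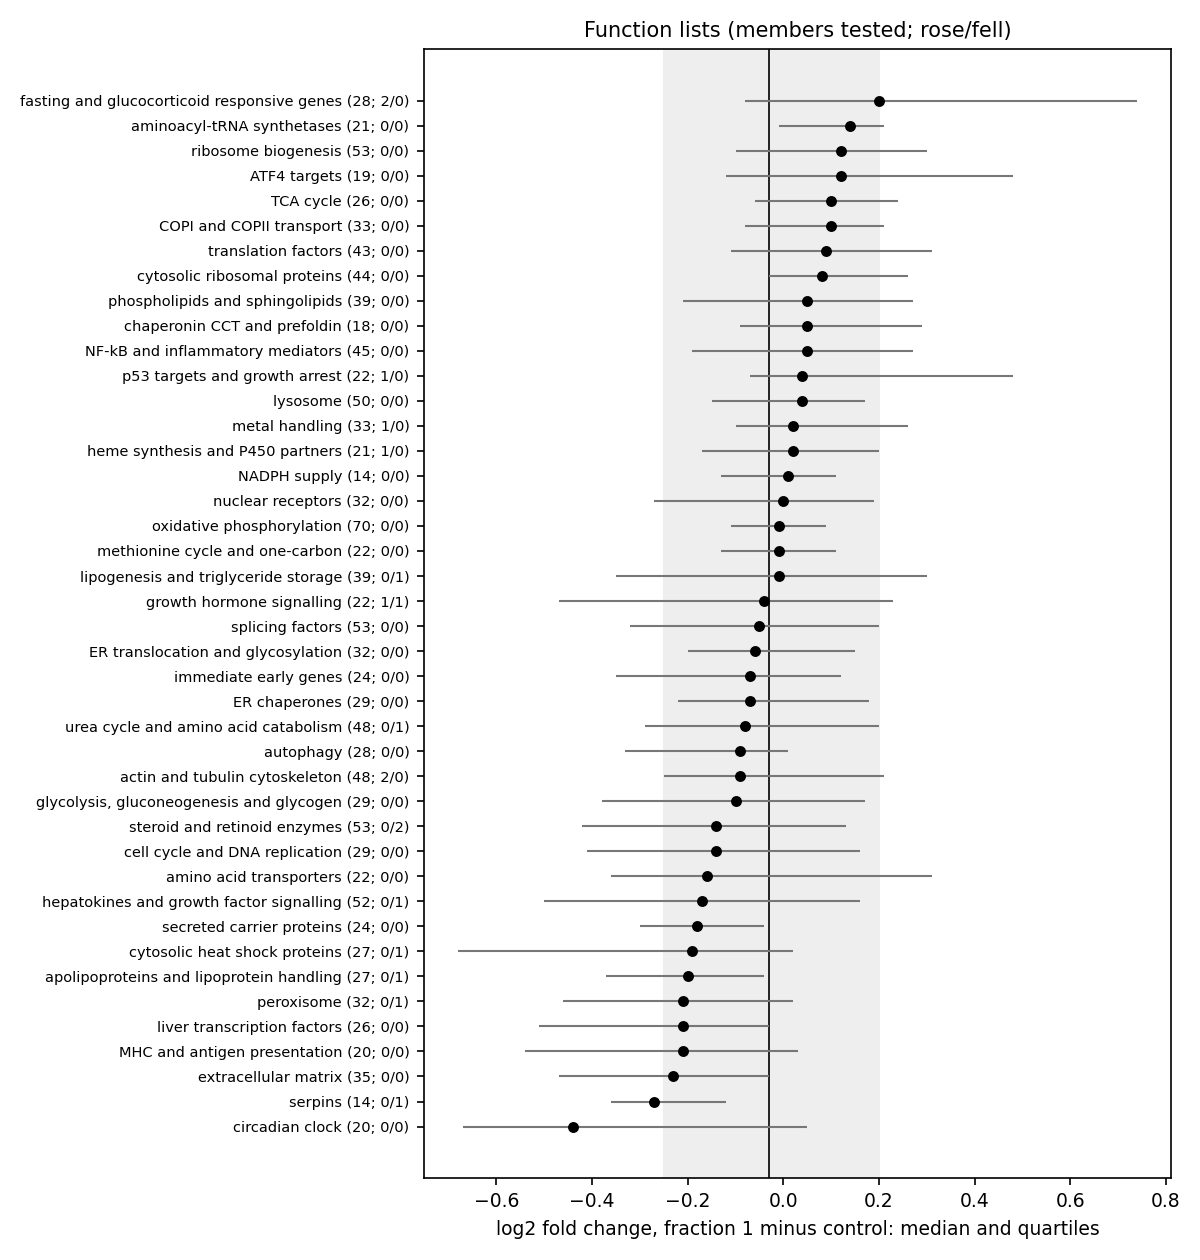
Median (point) and quartiles (line) of the log2 fold change of fraction 1 against control (horizontal axis) for each of the 42 function lists, with the number of members tested and the number that rose and fell in brackets. The black line is the median of all genes tested, -0.03, and the grey band their quartiles, -0.25 to 0.20; the circadian clock list lies lowest at -0.44.

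A further 132 probe sets had an adjusted p from 0.05 to 0.1, of which 63 were higher and 69 lower. Named among them after their values were seen, Nnmt, which methylates nicotinamide, read 511 and 349.9 on control and 1127 and 1661 with fraction 1 (log2 fold change 1.66 ± 0.35 SE, adjusted p = 0.0891). Gaa, the lysosomal enzyme that degrades glycogen, read 462 and 844 on control and 1843 and 1985 with fraction 1 (log2 fold change 1.59 ± 0.29 SE, adjusted p = 0.0541), and passed when scan batch was a block, at 1.27 (adjusted p = 0.0389). Cited2, a regulator of CBP and p300, read 738 and 636 on control and 343 and 275 with fraction 1 (log2 fold change -1.12 ± 0.20 SE, adjusted p = 0.0541), and Gas1, a growth arrest gene, read 894 and 742 on control and 287 and 156 with fraction 1 (log2 fold change -1.86 ± 0.33 SE, adjusted p = 0.0524). In each of the 4 the groups did not overlap.

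For 17 of the 85 called genes the probe set that was called is not the brightest of the gene, and the brightest was not called. Fibp had a called probe set at 2.05 and a brightest one at -0.39, and Txn1 had 2.53 and 0.42. The ribosomal protein gene Rpl7 had 1.07 and -0.00, and Lpgat1 had 1.32 and -0.05. Lima1, an actin binding protein, fell by 2.63 on the log2 scale on its called probe set, where both fraction 1 values lay below the 40th percentile, against -0.68 on the brightest. In the other 12 genes the 2 probe sets had the same sign. Probe sets whose names end in x or s can read several transcripts: they were 7.5% and 7.31% of those tested and 10.5% and 15.2% of those called.

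**Figure D5:**
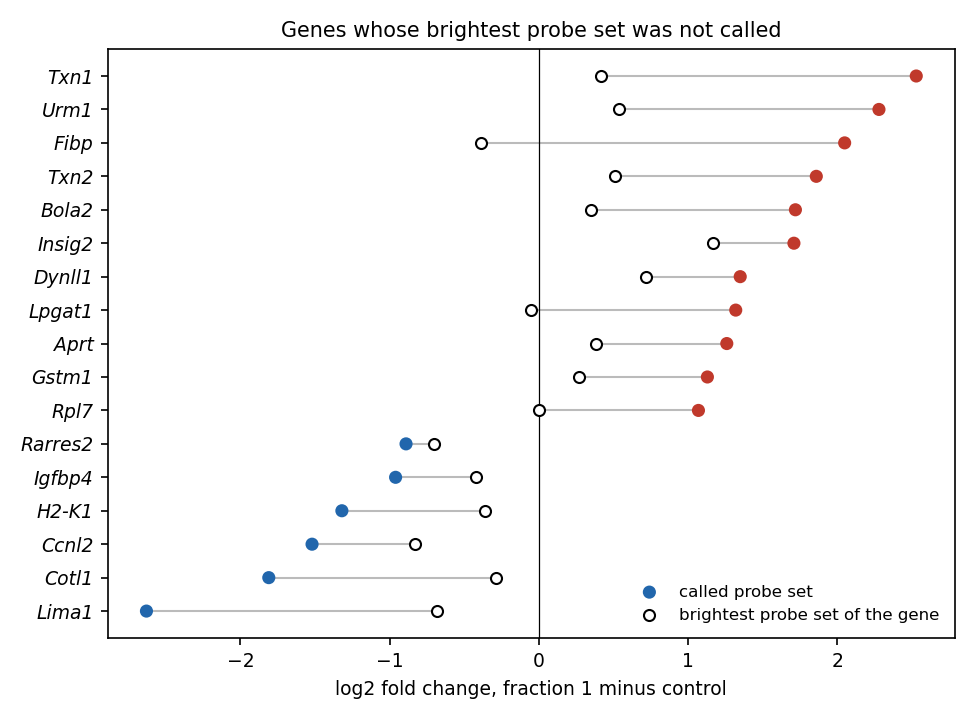
Log2 fold change of fraction 1 against control (horizontal axis) on the called probe set (filled; red higher, blue lower) and on the brightest probe set of the same gene (open) for the 17 genes whose brightest probe set was not called. Fibp lies at 2.05 and -0.39, and Insig2 at 1.71 and 1.17.

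Values on the methanol extract are set beside these without a test against control, because both extracts share the 2 control arrays. Both fraction 2 arrays lay beyond both controls in the same direction for 51 of the 54 probe sets called higher. The same held for 42 of the 51 called lower. The shared controls favour such counts, so nothing is read from them. The single genes named next were chosen after their values were seen. Sqle read 729.6 and 621 with fraction 2, 1450.3 and 1668 with fraction 1 and 691 and 550.3 on control, and Cyp39a1 read 127 and 194 with fraction 2, 635 and 925 with fraction 1 and 228 and 157 on control. Keg1 read 6838 and 7292 with fraction 2, 3288 and 2635 with fraction 1 and 7690.2 and 8064 on control, and Ctse read 2829.5 and 2514 with fraction 2, 1276 and 894 with fraction 1 and 2436 and 2540.4 on control. Those 4 genes were near control levels on fraction 2, whereas Ttc39c read 2279 and 2431 with fraction 2, 2345 and 2208 with fraction 1 and 4749 and 5104 on control and Cyp2g1 read 1211 and 976 with fraction 2, 957 and 836 with fraction 1 and 244 and 254 on control, close to or beyond fraction 1. In the test between the extracts, 2 of 14755 probe sets passed (0.0136%), both without a single gene symbol, and 0 of the 85 called genes did. With limma, 61 of the 85 had an unadjusted p under 0.05 in that test, against 1187 of all 14755 probe sets (8.04%), and the smallest adjusted p was 0.121. The 85 genes were chosen on the same fraction 1 arrays, which favours a difference here, so nothing is read from that count.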

How the data were processed

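Liver RNA from 6 samples was hybridised to 1 Affymetrix expression array each. The authors deposited 1 linear signal intensity per probe set and array; trimmed means (lowest and highest 2% left out) were equal within 0.00589%; the summary method is not given in the sources used here. The table holds 22690 probe sets, and 64 controls among them were not used. By the platform annotation, 20380 of the rest had 1 gene symbol, 691 several and 1555 none; 20351 matched a gene table by Entrez ID and 0 symbols changed.

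Signals were taken as log2 of signal plus 16. Tested probe sets reached the array's 40th percentile on 2 or more of the 6 arrays. All 3 groups, 2 arrays each, were fitted together in R 4.3.3 with limma 3.58.1 (lmFit, eBayes with a variance trend), which was tested on simulated data; p-values are two-sided and were adjusted by Benjamini-Hochberg over all 14755 tested, and an adjusted p under 0.05 was called. Lists used the tested probe set of highest mean log2 value for each gene, and called genes their brightest called one. Genes were named if they were called, with values on every array for ranks 9 to 24 in each direction, or if they had among the 3 smallest p of a list; the others were chosen after their values were seen. The 18 alternatives per gene covered normalization (quantile, median centring), pseudocounts of 1 and 64, a floor of 50, the filter, the variance trend, scan batch and chip lot, the arrays fitted, and leaving out each array. The genes, lists and motifs were chosen with earlier results of these data known. Figures were drawn with matplotlib 3.10.9 in Python 3.11.15.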

Additional observations from a re-analysis of the deposited data

How the results depend on the processing

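The count of 105 called probe sets stayed within 1.5 times under quantile normalization, other pseudocounts, the floor of 50, the filter at the 60th percentile, scan batch as a block and chip lot as a block. It was 48 with arrays centred on their median, 27 without a filter, 12 without a variance trend, 66 within scan batch 1 and 39 with only the 4 arrays compared. Leaving out 1 array gave 14 to 149. Of the 105, 82 were also called after quantile normalization, 77 with scan batch as a block and 13 without fraction 1b. The count of 505 probe sets 2-fold apart without overlap was 275 with a pseudocount of 64, 900 without a filter, 288 with the filter at the 60th percentile, and 585 to 941 with 1 array left out. The causes were not tested.

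No called gene changed direction under the 18 alternatives; 5 genes, 3 that rose and 2 that fell, were called in all of them, and 21 that rose and 24 that fell in fewer than 9. Another probe set of the same gene had the opposite sign, without passing, for Ctse (0.20), Fibp (-0.39 and -0.34), Gadd45b (-0.14), H2-K1 (0.06), Lpgat1 (-0.05) and Rpl7 (-0.00).

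No paired analysis was possible for fraction 1 against control because the control arrays carry numbers and the fraction 1 arrays letters. Fractions 1 and 2 share the letters a and b; over the tested probe sets the a minus b differences of the fractions correlated at 0.03, so the letters were not taken to pair the samples. With the letters as a replicate block, fitted to the fraction arrays alone, 18 of the 95 called probe sets with 1 gene symbol differed between the fractions, against 0 without the block. With 2 arrays a group smaller changes may be missed, more so at dim probe sets, where standard errors were larger (median 0.36 in the dimmest part against 0.19 in the brightest).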
